A study of Mus musculus with 31 samples.

Results

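The 5 genes upstream of STAT5 described here are the prolactin receptor gene Prlr, the growth hormone receptor gene Ghr, and the genes of the Janus kinases Jak1, Jak2 and Tyk2. They were taken by gene symbol because they encode receptors and kinases that act before STAT5, and all 5 were found among the 22609 genes of each of 2 expression tables. RNA of mouse mammary gland, taken without the lymph nodes, was sequenced at day 6 of pregnancy and at parturition, less than 12 hours after delivery. The mice were of a mixed 129SV::FVB/N::C57BL/6 background and carried 0 to 4 functional alleles of the neighbouring genes Stat5a and Stat5b. Null mice (Stat5abfl/fl;MMTV-Cre) lost both genes where a Cre driven by the mouse mammary tumour virus promoter (transgenic line A) was active, which the study describes as mammary epithelium, so other cells of the gland kept all 4 alleles. B mice (Stat5abnull/Stat5a-) kept 1 Stat5b allele and A mice (Stat5abnull/Stat5b-) kept 1 Stat5a allele. BB mice (Stat5a-/-) kept 2 Stat5b alleles, AB mice (Stat5ab+/null) kept 1 allele of each gene, and AABB mice were wild type with 4 alleles. Null differs from B, A, BB and AB both in allele number and, by its Cre, in which cells lost the genes, and these cannot be told apart.

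For each stage the tables hold 6 columns, 1 for each genotype. A column is a mean made by the authors, with 3 samples listed per genotype at day 6. At parturition B has 3 listed samples and every other genotype 2. Every level below is therefore the authors' mean in FPKM (a fragment count corrected for transcript length and library size), after the 6 columns of a stage were scaled to a common median. The spread between mice is unknown, so differences are ratios of means without a test. For the same reason it cannot be judged whether neighbours in an order of levels differ beyond their spread. A gene was called higher or lower where its ratio of scaled FPKM + 1 between 2 columns was at least 2-fold (a log2 ratio of 1 or more in size). Samples of A and B mice carry tags with shared numbers that end in R and L, and the labels do not say whether these were glands of 1 animal.

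Prolactin and growth hormone bind cytokine receptors that have no kinase activity of their own. The receptors carry Jak2, which phosphorylates the receptor and STAT5, and STAT5 dimers then bind promoters and enhancers of target genes such as those of milk proteins and of the feedback inhibitor CISH. In mammary epithelium prolactin drives alveolar development in pregnancy, whereas the growth hormone receptor of the gland is best known from its fat and stroma. Jak1 and Tyk2 serve other cytokine receptors, including those of interferons and of the interleukin 6 family.

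STAT5 dimers bind a short palindrome, TTCNNNGAA, which was searched for in the RefSeq promoters of the 5 genes (assembly GRCm38.p6, 250 bases before to 50 bases after each start). The palindrome reads the same on both strands. All 5 genes matched, with 8 promoters in all: 3 of Prlr, 2 of Ghr and 1 each of Jak1, Jak2 and Tyk2. Only 1 of the 8 held the motif, a Prlr promoter, and 8.30% of 32851 mouse promoters of this length hold it. The 3 Prlr promoters are shown because Prlr differed most between genotypes at day 6 and because they show how a gene with several start sites carries the motif at 1 of them. They lie on the plus strand at chr15:10176988-10177287, chr15:10223656-10223955 and chr15:10293401-10293700. Capitals mark the motif, whose first base is at -110 from the start site, and a match in these letters does not show binding.
Prlr promoter 1: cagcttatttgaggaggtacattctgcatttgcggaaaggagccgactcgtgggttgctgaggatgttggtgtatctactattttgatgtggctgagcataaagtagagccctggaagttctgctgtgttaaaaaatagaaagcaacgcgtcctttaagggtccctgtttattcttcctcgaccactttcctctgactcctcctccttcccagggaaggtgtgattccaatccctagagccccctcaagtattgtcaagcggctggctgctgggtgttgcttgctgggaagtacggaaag
Prlr promoter 2: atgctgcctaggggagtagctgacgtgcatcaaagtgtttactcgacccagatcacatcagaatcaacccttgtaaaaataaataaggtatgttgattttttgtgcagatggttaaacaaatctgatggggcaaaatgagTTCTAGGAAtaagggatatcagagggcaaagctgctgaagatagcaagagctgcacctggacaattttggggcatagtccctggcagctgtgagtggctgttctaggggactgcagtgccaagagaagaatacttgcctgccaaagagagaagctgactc
Prlr promoter 3: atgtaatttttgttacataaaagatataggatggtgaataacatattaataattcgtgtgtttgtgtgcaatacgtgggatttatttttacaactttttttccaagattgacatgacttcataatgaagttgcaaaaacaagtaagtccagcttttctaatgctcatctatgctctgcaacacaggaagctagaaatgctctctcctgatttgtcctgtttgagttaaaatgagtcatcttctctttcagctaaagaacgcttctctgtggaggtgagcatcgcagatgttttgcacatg
The values below are per gene and do not say which of these starts was used. GENCODE M21 lists 7 protein-coding Prlr transcripts of 564 to 9900 bases, which encode long and short receptor forms, and 5 Ghr transcripts of 898 to 4175 bases, among them that of the secreted growth hormone binding protein. Exons of Prlr overlap Gm21973 on the same strand, exons of Jak1 overlap Raver2 and exons of Tyk2 overlap 1700084C06Rik on the opposite strand. Whether counting used the strand is not given in the sources used here, so these 3 genes may share reads with their neighbours.

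The STAT5 genes themselves checked the labels only in part. Stat5a was lowest in the BB column, at 3.66 scaled FPKM at day 6 and 4.28 at parturition, and highest in AABB, at 33.5 and 70.3. Stat5a still stood at 12.5 and 8.55 in the column labelled B, whose mice have no functional Stat5a allele. Stat5b still stood at 10.6 and 10.3 in the column labelled A, whose mice have no functional Stat5b allele. Which exons the alleles lack is not given in the sources used here, so these levels do not decide on the labels. Luminal epithelium markers were present in every column, with a summed level of 1040 to 2261 scaled FPKM over 16 genes at day 6 and 1479 to 2816 at parturition. Read depth is unknown, and FPKM summed to between 433958 and 528347 per column at day 6 and between 432576 and 1190590 at parturition.

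At day 6 of pregnancy, 2 of the 5 genes were called higher than in wild type in each of the 5 genotypes with fewer STAT5 alleles, and none was called lower. In Null these were Prlr and Ghr, where 2.21% of all 13367 genes tested were called higher. In B, A and BB they were Prlr and Jak1, against backgrounds of 7.53%, 7.00% and 5.11%. In AB they were Ghr and Jak1, against 6.75%. The median log2 ratio of the 5 genes was 0.53 in Null, 0.96 in B, 0.84 in A, 0.54 in BB and 0.43 in AB, beside medians between -0.02 and 0.04 over all genes. Lower calls made up 2.09% of all genes in Null, 5.18% in B, 5.53% in A, 3.60% in BB and 5.00% in AB. The 5 comparisons share the AABB column, so the counts are not independent of each other. After a correction for transcript length and GC content 2 of the 10 calls were left, those of Ghr in Null and AB. The AABB column also differed in tissue makeup. Brown adipocyte markers summed to 1596 scaled FPKM in AABB at day 6, against 127 to 617 in the other genotypes. At parturition they summed to 1857 in AABB, against 75.2 to 334. The part of tissue makeup in the ratios against AABB was not tested.

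**Figure D1:**
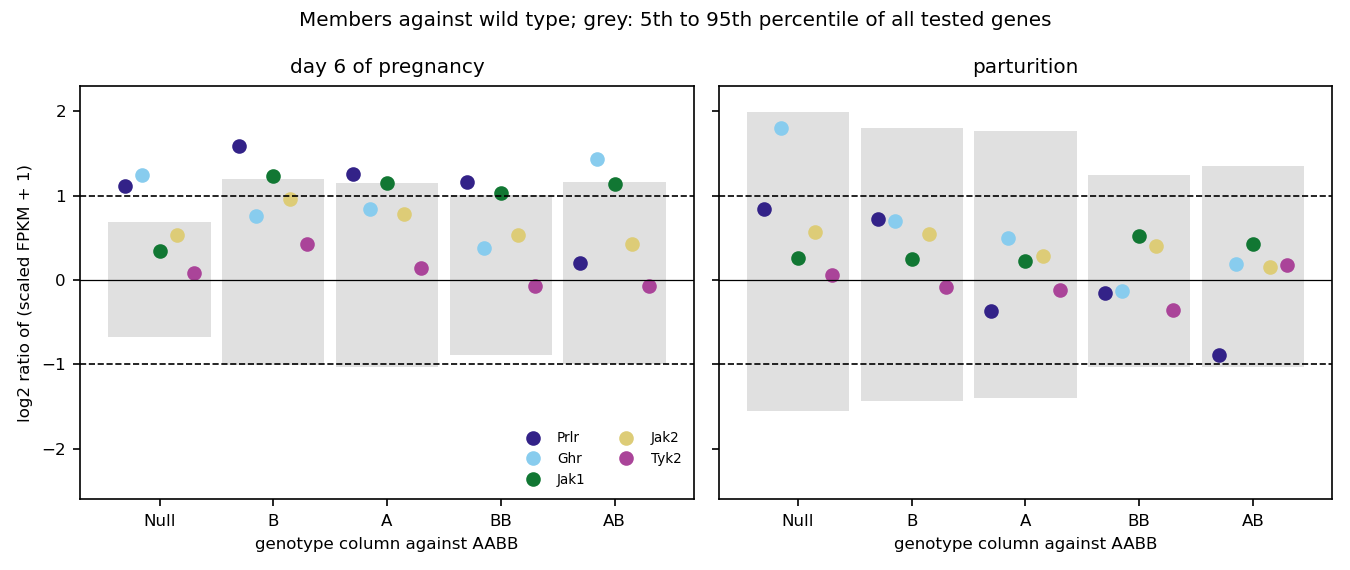
Each coloured point is the log2 ratio of scaled FPKM + 1 of 1 of the 5 genes in a genotype column against AABB, at day 6 of pregnancy (left) and parturition (right). Grey boxes span the 5th to 95th percentile of all genes tested and dashed lines mark 2-fold. Above the box at day 6 lie Prlr in Null, B, A and BB, Ghr in Null and AB, and Jak1 in B and BB. At parturition all 5 genes lie within it in every column.

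At parturition 1 of 25 comparisons of a gene with wild type was called, that of Ghr in Null. The background there was wide, since 19.0% of 13061 genes were called higher in Null, 18.2% in B, 17.3% in A, 8.05% in BB and 10.2% in AB, so 1 of 5 in Null is near the background share. Lower calls made up 10.7%, 10.1%, 10.0%, 5.37% and 5.44% in the same order, and none of the 5 genes was among them. The median log2 ratio of the 5 genes was 0.57 in Null, 0.54 in B, 0.22 in A, -0.13 in BB and 0.18 in AB. Without scaling 6 of the 25 were called, all in Null and B, while the median of all genes stood at 0.50 in Null and 0.53 in B in place of 0.10 and 0.11. With luminal scaling the small parturition ratios of Ghr and Jak2 in AB turned to -0.20 and -0.22 and that of Jak1 in B to -0.06. The single Ghr call was kept under the other scalings, the smaller pseudocount and the length and GC correction.

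Between genotypes other than wild type, 6 differences among the 5 genes were called, all in Prlr or Ghr. In 7 of these 12 comparisons none of the 5 was called. These were, at day 6, A against B, BB against B (6.45% of all genes called in either direction), B against Null (10.4%) and A against Null (10.7%). At parturition they were AB against BB (1.78%), BB against B (7.83%) and AB against A (5.95%).

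Prlr was lowest in wild type and in AB at day 6 of pregnancy, and its level in the other 4 genotypes was 2.25 to 3.16 times that of wild type. Its levels were 28.6 scaled FPKM in Null, 40.2 in B, 31.7 in A, 29.6 in BB, 14.7 in AB and 12.7 in AABB. The order was B, A, BB, Null, AB and AABB, with a gap between Null and AB. Against AABB, the log2 ratio was 1.11 in Null, 1.59 in B, 1.25 in A, 1.16 in BB and 0.20 in AB. None of the 4 Prlr calls was kept with the length and GC trend removed, where the log2 ratio was 0.97 in Null, 0.85 in B, 0.48 in A, 0.69 in BB and -0.32 in AB. With columns scaled to a common median, AB, which kept 1 allele of each gene, stood near wild type. BB, which also kept 2 alleles but no Stat5a, stood with the single-allele mice. With columns scaled to luminal markers Prlr in AB was called higher as well, at 1.17, so its nearness to wild type depends on the scaling. In bulk tissue, fewer cells of a type and less RNA per cell cannot be told apart.

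At parturition the order of Prlr was another. Levels were 51.3 scaled FPKM in Null, 47.1 in B, 21.5 in A, 25.3 in BB, 14.8 in AB and 28.1 in AABB. Null and B were highest, AB was lowest, and wild type came next after Null and B. Against AABB the log2 ratio was 0.84 in Null, 0.72 in B, -0.37 in A, -0.15 in BB and -0.89 in AB, and none reached 2-fold. Without scaling of the columns, Null and B passed 2-fold with log2 ratios of 1.31 and 1.21, and the small differences of A and BB turned to 0.08 and 0.15. With the columns scaled to luminal markers Null passed it at 1.25, beside a median of all genes of 0.47, and AB at -1.26, beside -0.28.

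**Figure D2:**
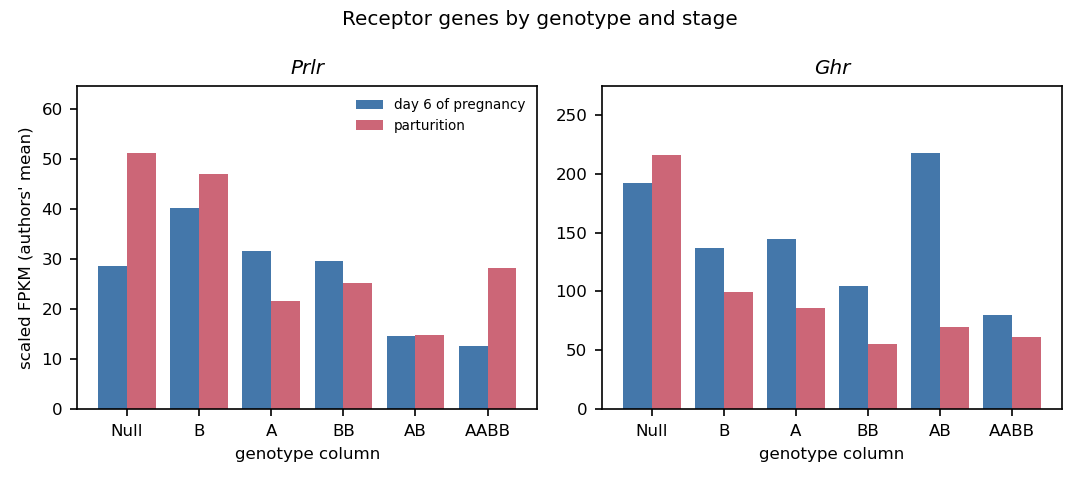
Bars give the authors' mean level of Prlr (left) and Ghr (right) in scaled FPKM for each genotype column, at day 6 of pregnancy (blue) and parturition (red), with no error bars since the columns are means. Prlr is lowest in AB and AABB at day 6 (14.7 and 12.7) and highest in Null and B at parturition (51.3 and 47.1), and Ghr is highest in AB at day 6 and in Null at parturition (218 and 216).

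The single-allele genotypes A and B differed in Prlr at parturition, whereas none of the 5 genes was called between these genotypes at day 6 (0.382% of 13367 genes were, in either direction). Prlr was 21.5 scaled FPKM in A and 47.1 in B, a ratio of 0.458 and a log2 ratio of -1.09. Of all 13061 genes tested there, 0.329% were called lower in A, and 0.245% had a ratio as low as that of Prlr. Scaling to luminal markers gave -0.99, just short of 2-fold. At day 6 the same 2 columns differed in the same direction by -0.33, from 40.2 in B to 31.7 in A. Prlr was also lower in AB than in A at day 6, with a log2 ratio of -1.06 (4.11% of 13367 genes were called lower), and lower in A than in Null at parturition, with -1.21 (3.17% were called lower). The first of these was short of 2-fold, at -0.81, once the dependence of ratios on transcript length and GC content was taken out, and at -0.96 with luminal scaling.

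Ghr was the most abundant of the 5 transcripts in every column. Day 6 levels were 192 scaled FPKM in Null, 137 in B, 144 in A, 105 in BB, 218 in AB and 80.3 in AABB. AB and Null were highest and wild type was lowest. The log2 ratio against AABB was 1.43 in AB and 1.25 in Null, which were called, and 0.76 in B, 0.84 in A and 0.38 in BB, which were not. AB thus stood near wild type in Prlr, though not with luminal scaling (1.17), and farthest from it in Ghr. Ghr exceeded Prlr 14.8-fold in AB and 3.41 to 6.70-fold in the other 5 columns.

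Parturition levels of Ghr were 216 scaled FPKM in Null, 99.3 in B, 86.1 in A, 55.7 in BB, 69.5 in AB and 61.0 in AABB. Null stood alone, and the 3 columns with 2 or 4 alleles were lowest. Against AABB the log2 ratio was 1.80 in Null, 0.69 in B, 0.49 in A, -0.13 in BB and 0.19 in AB. Ghr was called lower in B and in A than in Null, with log2 ratios of -1.11 and -1.31, where 2.86% and 3.17% of all genes were called lower. BB against B gave -0.82, which became -1.02 without scaling and -1.03 without the length and GC trend. At day 6 AB exceeded BB in Ghr, with a log2 ratio of 1.05 (1.73% of genes were called higher) that was 0.99 without scaling.

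Adipocyte markers moved with Ghr in part. Their summed level over 12 genes at day 6 was 50066 scaled FPKM in Null, 25490 in B, 26042 in A, 23535 in BB, 31048 in AB and 21836 in AABB. At parturition it was 31391 in Null, 21275 in B, 23077 in A, 9900 in BB, 8741 in AB and 4931 in AABB. Null and AB at day 6, and Null at parturition, stood highest in both Ghr and these markers. All 12 markers were called higher than in AABB at parturition in Null, B and A, as were 7 in BB and 8 in AB. Of all genes, 19.0% were called higher in Null, 18.2% in B, 17.3% in A, 8.05% in BB and 10.2% in AB. Ghr was called only in Null there. Ghr per 100 FPKM of adipocyte markers was 0.368 in AABB, 0.383 in Null and 0.446 to 0.702 in the other 4 columns at day 6. At parturition it was 1.24 in AABB, 0.687 in Null and 0.373 to 0.795 in the other 4, so on this scale Null was below wild type. Skeletal muscle markers were highest in the column highest in Ghr at each stage. Their sum over 10 genes at day 6 was 7134 scaled FPKM in AB against 32.8 to 532 in the other 5. At parturition they summed to 3741 in Null, 2263 in B, 2342 in A, 5.09 in BB, 8.49 in AB and 241 in AABB. Other columns did not match. At day 6 B and A had muscle sums of 32.8 and 73.0 beside Ghr of 137 and 144. At parturition B and A had Ghr of only 99.3 and 86.1. The part of fat and muscle in the Ghr values was not tested.

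Prlr showed no such match with luminal markers. Luminal markers at day 6 were lowest in AB, at 1040 scaled FPKM, and highest in AABB, at 2261, the 2 columns lowest in Prlr. Per 100 FPKM of luminal markers, Prlr was 0.561 in AABB, 1.41 in AB, 1.54 in Null, 1.93 in BB, 2.37 in A and 2.71 in B. Scaling to these markers widened the day 6 differences, to log2 ratios of 2.39 in B, 2.13 in A and 1.17 in AB against AABB, so that AB was called as well. At parturition the same quantity was 3.47 in Null, 1.83 in B, 0.841 in A, 0.897 in BB, 0.554 in AB and 1.35 in AABB. Markers of hormone-sensing epithelium, which holds the estrogen and progesterone receptors and is known for high Prlr, summed to 433 scaled FPKM in Null, 692 in B, 669 in A, 520 in BB, 500 in AB and 623 in AABB at day 6. AABB, lowest in Prlr, stood below only B and A there, and Null was lowest. At parturition they summed to 380 in Null, 387 in B, 342 in A, 113 in BB, 138 in AB and 92.2 in AABB. Null and B, the columns highest in Prlr, were among the 3 highest, but so was A, with Prlr below wild type (21.5 and 28.1). Prlr per 100 FPKM of these markers at day 6 was 6.60 in Null, 5.80 in B, 4.73 in A, 5.69 in BB, 2.94 in AB and 2.04 in AABB. At parturition it was 13.5 in Null, 12.2 in B, 6.30 in A, 22.3 in BB, 10.7 in AB and 30.5 in AABB, so on this scale wild type was highest. What these cells contribute to the Prlr values was not tested.

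**Figure D3:**
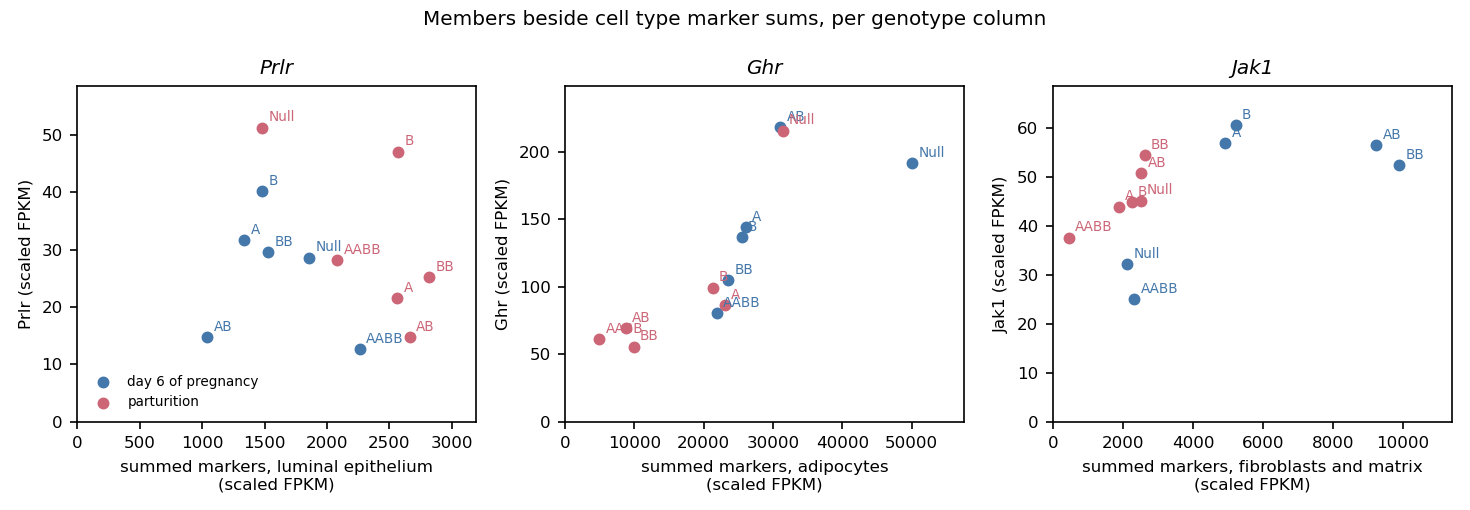
Each point is 1 genotype column at day 6 of pregnancy (blue) or parturition (red), with the summed scaled FPKM of a marker list on the x axis and the scaled FPKM of Prlr, Ghr or Jak1 on the y axis. At parturition Ghr is highest where adipocyte markers are highest, in Null (216 beside 31391). The day 6 column with most luminal markers, AABB at 2261, has the lowest Prlr of that stage.

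Jak2, the kinase that both receptors carry, was lowest in wild type at both stages with columns scaled to a common median. It differed less between genotypes than Prlr. Day 6 levels were 14.9 scaled FPKM in Null, 20.4 in B, 17.8 in A, 14.9 in BB, 13.8 in AB and 9.95 in AABB. Wild type was lowest and B highest, and the log2 ratio against AABB was 0.53 in Null, 0.96 in B, 0.78 in A, 0.54 in BB and 0.43 in AB. At parturition the levels were 19.2 in Null, 18.8 in B, 15.5 in A, 17.0 in BB, 14.0 in AB and 12.6 in AABB, again with wild type lowest. The log2 ratio there was 0.57 in Null, 0.54 in B, 0.28 in A, 0.40 in BB and 0.15 in AB. None of the 22 comparisons within a stage called Jak2. The nearest, B against AABB at day 6, passed 2-fold with a pseudocount of 0.1 (1.03), without scaling (1.00) and with upper-quartile scaling (1.03). Luminal scaling brought B, A, BB and AB past it at day 6 with 1.75, 1.64, 1.04 and 1.39. Without scaling Null and B passed it at parturition with 1.02 and 1.01. Other settings lowered the ratios. The lowest day 6 values over all settings were 0.44 in Null, 0.59 in B, 0.39 in A, 0.27 in BB and 0.15 in AB. With luminal scaling AB at parturition turned to -0.22, so wild type was not lowest there.

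Jak1 was called in 4 of 5 comparisons against wild type at day 6 and in none at parturition. Its day 6 levels were 32.3 scaled FPKM in Null, 60.7 in B, 56.9 in A, 52.4 in BB, 56.6 in AB and 25.2 in AABB. B, A, BB and AB lay close together, and Null stood near wild type. The log2 ratio was 1.24 in B, 1.15 in A, 1.03 in BB and 1.14 in AB, and 0.35 in Null. Levels at parturition were 45.2 in Null, 44.9 in B, 44.0 in A, 54.5 in BB, 50.9 in AB and 37.7 in AABB, a 1.45-fold range. The calls did not hold with the length and GC trend removed, where the log2 ratio was 0.98 in B, 0.89 in A, 0.83 in BB and 0.93 in AB, and without scaling BB and AB were short of 2-fold at 0.91 and 0.96.

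Fibroblast and matrix markers separated the same columns at day 6. Over 12 genes they summed to 2116 scaled FPKM in Null, 5220 in B, 4933 in A, 9901 in BB, 9245 in AB and 2329 in AABB. Null and AABB were lowest in both Jak1 and these markers. Mast cell markers summed to 75.4 in Null and 69.1 in AABB and to between 286 and 474 in the other 4 columns. At parturition fibroblast markers summed to 445 in AABB and to 1874 to 2619 elsewhere, where Jak1 spanned 44.0 to 54.5 against 37.7 in AABB. Whether stromal cells set the Jak1 values was not tested.

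Tyk2 differed least among the 5 at day 6. Levels were 6.60 scaled FPKM in Null, 8.65 in B, 6.90 in A, 5.86 in BB, 5.83 in AB and 6.19 in AABB at day 6, a 1.48-fold range. They were 6.80 in Null, 6.03 in B, 5.89 in A, 4.85 in BB, 7.47 in AB and 6.48 in AABB at parturition, a 1.54-fold range. Log2 ratios against AABB lay between -0.35 (BB at parturition) and 0.43 (B at day 6), and no comparison within a stage called Tyk2. Luminal scaling alone brought Tyk2 past 2-fold, to 1.16 in B at day 6. Jak3, the fourth kinase of the family, which is best known from lymphocytes, was not called in any comparison with AABB, where its largest log2 ratio was 0.98 in AB at parturition. It was called higher in AB than in BB at parturition, with a log2 ratio of 1.08.

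Jak1 was the most abundant of the 4 Janus kinases in every column on the per-length FPKM scale. It made up 49.5% of their summed FPKM in AABB at day 6, about the same share in Null, and 60.8 to 66.1% in the other 4 columns. At parturition its share was 55.8 to 66.1%. Jak2 held 16.1 to 23.0% at day 6 and 16.2 to 24.4% at parturition. Prlr was 1.07 times the level of Jak2 in AB at day 6, 1.28 times in AABB and 1.77 to 1.99 times in the other 4 columns. At parturition it was 1.05 times in AB and 2.67 times in Null, with 2.24 times in AABB.

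**Figure D4:**
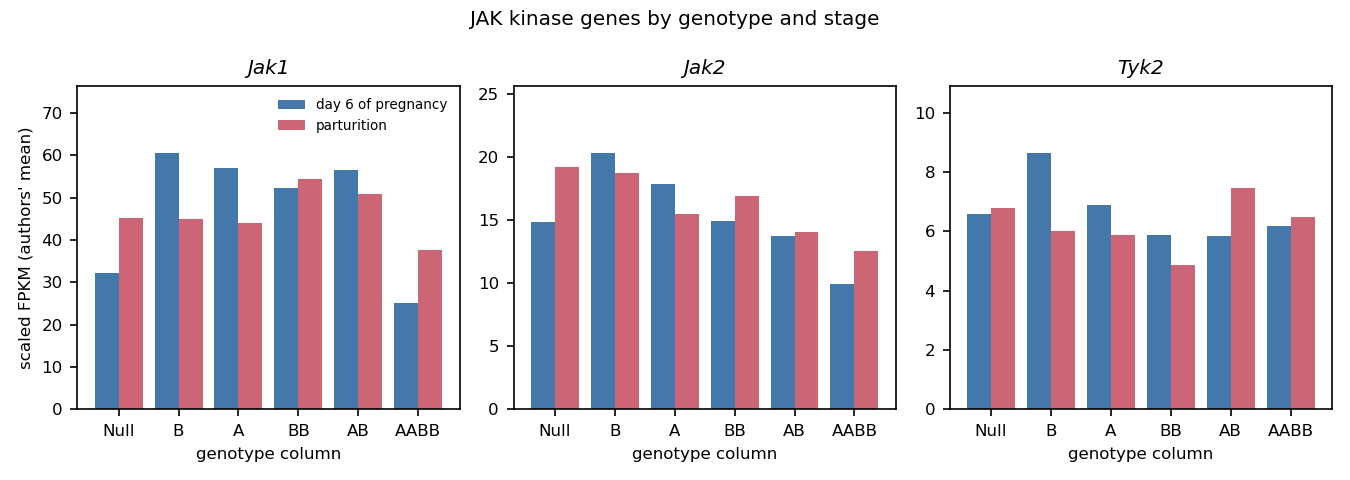
Bars give the authors' mean level of Jak1, Jak2 and Tyk2 in scaled FPKM for each genotype column at day 6 of pregnancy (blue) and parturition (red), without error bars. Jak1 at day 6 is lowest in AABB and Null (25.2 and 32.3) and between 52.4 and 60.7 in the other 4 columns, and Tyk2 stays between 4.85 and 8.65.

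Of the 10 calls at day 6, 8 fell short of 2-fold once the dependence of ratios on transcript length and GC content was taken out. The 2 Ghr calls in Null and AB remained, at log2 ratios of 1.18 and 1.21. The 4 Jak1 ratios stood just under 2-fold, at 0.83 to 0.98, whereas Prlr in A went from 1.25 to 0.48. All 10 calls remained with a pseudocount of 0.1, with upper-quartile scaling and with luminal scaling, and 8 of 10 remained without scaling. Luminal scaling moved the median of all genes to as much as 0.87, in AB, and brought Ghr to 1.62 in B, 1.77 in A and 2.47 in AB.

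Levels at the 2 stages were set side by side after all 12 columns were scaled together, since the tables may have been normalized separately. In wild type Prlr was 12.1 scaled FPKM at day 6 and 29.4 at parturition, a log2 ratio of 1.22, a pair of columns in which 11.2% of 13771 genes were called higher. Without scaling this ratio was 0.72, short of 2-fold. Null also had more Prlr at parturition, 27.6 and 52.9 with a log2 ratio of 0.91 (1.01 without scaling), whereas B gave 0.33, A -0.42, BB -0.11 and AB 0.10. Ghr in AB went from 213 to 72.5, a log2 ratio of -1.54 in a column pair in which 9.27% of genes were called lower. Elsewhere the Ghr ratio was 0.26 in Null, -0.35 in B, -0.62 in A, -0.79 in BB and -0.26 in AABB. In AABB the stage ratios moved most without scaling, to -0.77 for Ghr, 0.19 for Jak1, -0.04 for Jak2 and -0.27 for Tyk2, beside a median of all genes of -0.50 in place of -0.11. Skeletal muscle markers in AB also differed between these columns, at 7134 and 8.49 when scaled within each stage, and their part in the Ghr difference was not tested. None of the 5 genes was called between stages in Null, B, A or BB, where 5.90%, 7.21%, 9.07% and 14.6% of all genes were called in either direction. Among the kinases, Jak1 ranged from -0.31 in B to 0.70 in AABB, Jak2 from -0.08 in A to 0.44 in Null, and Tyk2 from -0.36 in B to 0.39 in AB.

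Among the 5 genes themselves, Prlr and Jak2 had the most similar patterns over the 12 columns. Pearson's r of log2(scaled FPKM + 1), after each stage's mean was subtracted, was 0.80 for Prlr and Jak2, 0.68 for Jak1 and Jak2, 0.51 for Ghr and Jak2 and 0.46 for Prlr and Ghr. The other 6 pairs lay between 0.14 and 0.31. The 12 points are authors' means that share scaling and, within a stage, tissue makeup, so r describes these columns only.

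The same measure named the genes most like each member among 6224 genes that passed the filter at both stages and varied over the columns. Genes with provisional symbols (Gm or LOC with a number, or ending in Rik) were left out of these 6224. Those most like Prlr were Tmem56 (r = 0.93), Defb1 (0.90), Ccdc68 (0.81), Cd164 (0.81) and Kif5c (0.80). Tmem56 stood at 25.0 scaled FPKM in Null, 34.7 in B, 23.7 in A, 21.1 in BB, 12.3 in AB and 8.44 in AABB at day 6, the same low pair of columns as Prlr. Most like Ghr were Fgf13 (0.95), Phkg1 (0.94), Limch1 (0.92), Mst1r (0.92) and Prkd1 (0.91). Fgf13 was highest in AB at day 6, at 15.1 scaled FPKM, and in Null at parturition, at 9.57, as Ghr was. Exoc4, Abca6 and Golim4 were most like Jak1 (each 0.98), Tmem123 (0.96), Arhgap42 (0.93) and Fcho2 (0.92) most like Jak2, and Gmip (0.85), Znf512b (0.78) and Ankrd11 (0.77) most like Tyk2.

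Upstream of the receptors, 4 ligand genes were measured (Prl, Gh, Prl3d1 and Prl3b1), and none reached 1 FPKM in any column. Prolactin and growth hormone are made mainly by the pituitary and placental lactogens by the placenta.

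Other receptors that signal through JAKs were called higher more often than lower in 9 of the 10 comparisons with wild type. Of 18 tested at day 6, 1 was called higher in Null, 5 in B, 4 in A, 4 in BB and 2 in AB, and 1 was called lower, in AB. The shares of all genes called higher were 2.21%, 7.53%, 7.00%, 5.11% and 6.75% in the same order. Il2rg, the common chain of lymphocyte cytokine receptors, had a log2 ratio of 1.64 in B, and the leptin receptor Lepr 1.30. At parturition 17 were tested, with 5 called higher and 2 lower in each of Null, B and A, 2 higher and 2 lower in BB, and 3 higher in AB. Of all genes there, 19.0% were called higher and 10.7% lower in Null, 18.2% and 10.1% in B, 17.3% and 10.0% in A, 8.05% and 5.37% in BB and 10.2% and 5.44% in AB, so higher calls outnumbered lower ones among all genes too. Il13ra1, a chain of the interleukin 13 receptor, had 2.63 in Null and 2.85 in B, and the oncostatin M receptor Osmr 2.21 and 2.33. Il4ra, the partner of Il13ra1, had -1.77 in Null. B cell and plasma cell markers summed to 230 scaled FPKM in B and 162 in A at day 6 and to 6.94 to 27.6 elsewhere, and their part in these lymphocyte receptor values was not tested.

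Of 19 inhibitors of receptor and JAK signalling, 1 was called lower in all 5 comparisons with wild type at day 6. This was Cish, a STAT5 target that blocks the activated receptor, with log2 ratios of -1.39 in Null, -1.85 in B, -1.76 in A, -2.25 in BB and -1.41 in AB. A count of 1 of 19 is near the background there, since 2.09 to 5.53% of all genes were called lower. Cish and Prlr lay on opposite sides of wild type in all 5 genotypes, though the Prlr ratio in AB was only 0.20. Another pair, Ptprc and Ptpn6, phosphatases of blood cells, were called higher in B (2.47 and 1.64) and in A (2.19 and 1.31). Of all genes, 7.53% were called higher in B and 7.00% in A, so 2 of 19 is close to the background. None of the inhibitors was called higher in Null, BB or AB. At parturition Cish stood at -2.53 in Null, -1.44 in B, -1.64 in A and -2.10 in BB, and at -0.69 in AB, where it was not called. Socs3, another feedback inhibitor, was called higher in all 5, from 1.15 in Null to 2.06 in A. Higher calls among the 19 were 3 each in Null and B, 2 in A and 1 each in BB and AB. Of all genes, 19.0% were called higher in Null, 18.2% in B, 17.3% in A, 8.05% in BB and 10.2% in AB. The counts were thus not above the background.

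Of 10 adaptors none was called in Null at day 6, 2 were lower in B and in A, 1 was higher and 1 lower in BB and 1 was lower in AB. Of all genes, 3.60 to 5.53% were called lower in these 4, and 5.11% were called higher in BB. The 2 of 10 in B and in A are above that share, though 10 genes are few. At parturition 3 were higher and 2 lower in Null, 3 were higher in B and in A and 1 in AB, and none was called in BB. Of all genes there, 19.0% were called higher and 10.7% lower in Null, and 18.2%, 17.3% and 10.2% were called higher in B, A and AB. Parturition counts this small are near the background. Sh2b2, which binds activated JAK2, had a log2 ratio of -1.31 in B at day 6 and of 3.09 in Null and 1.69 in B at parturition.

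Outputs of the pathway were called lower more often than higher in each comparison with wild type. This list, like the others, was chosen with earlier results of these data known, so its counts are described only. Of 11 output genes, 6 were called lower in Null, 5 each in B, A and BB and 6 in AB at day 6, where 2.09 to 5.53% of all genes were called lower. Higher calls there were 1 in A and 2 in AB, where 7.00% and 6.75% of all genes were called higher. At parturition 6 each were called lower in Null, B and A, 3 in BB and 5 in AB, where 5.37 to 10.7% of all genes were called lower. Higher calls were 3 each in Null, B and A and 1 each in BB and AB. Of all genes, 19.0% were called higher in Null, 18.2% in B, 17.3% in A, 8.05% in BB and 10.2% in AB. Csn2, which encodes beta-casein, had log2 ratios of -8.95 in Null, -11.39 in B, -10.76 in A, -9.59 in BB and -9.96 in AB at day 6, the last beside a Prlr ratio of 0.20. Of the 11 outputs, 2 were below 1 FPKM in B and in A at day 6 and 1 each in BB and AB. Ratios this large rest on low levels outside wild type, where the pseudocount of 1 weighs on them, so their order is not read. At parturition Csn2 stood at -8.91 in Null, -6.50 in B, -4.98 in A, -1.14 in BB and -1.32 in AB. In A and B at parturition, Prlr was lower in A while Csn2 was less far below wild type there. Elf5, an alveolar transcription factor, had -1.75 in Null and -1.89 in B at day 6 and -4.00 and -3.10 at parturition.

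**Figure D5:**
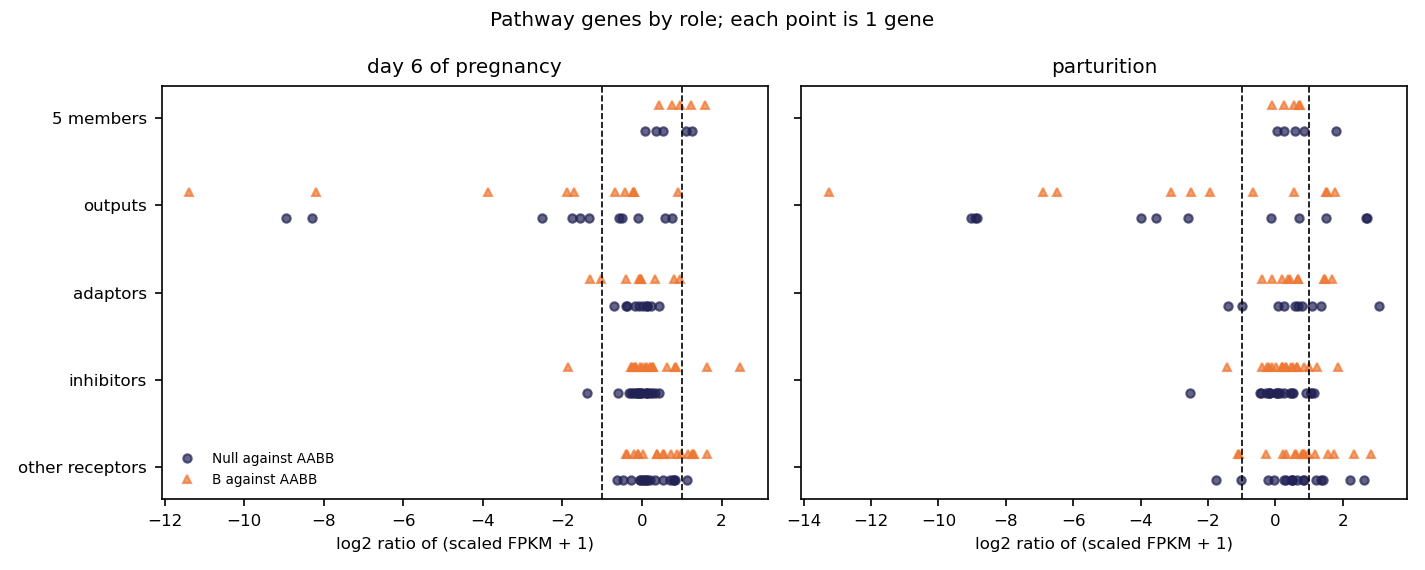
Each point is the log2 ratio of scaled FPKM + 1 of 1 gene in Null (circles) or B (triangles) against AABB, grouped by role in the pathway, at day 6 of pregnancy (left) and parturition (right), with dashed lines at 2-fold. Output genes reach -11.39 in B at day 6 (Csn2), while the 5 receptor and kinase genes lie between 0.08 and 1.59 in these 2 columns at that stage.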

How the data were processed

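Poly(A) RNA was sequenced on an Illumina instrument, per the labels' protocols. CASAVA, TopHat and the build mm9 are named, without versions, per the submitters' processing notes. The deposited FPKM are means that the authors made per genotype and stage; the FPKM program, annotation, filters and depth are not given in the sources used here. In columns with 3 listed samples 57.9 to 62.6% of values end in the recurring decimals of a mean over 3, against at most 0.173% in columns with 2. The protocol speaks of tissue from a pair of mice per genotype, although 3 samples are listed for each at day 6.

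Within a stage each column was divided by its median ratio to a geometric mean column, taken from the 11733 (day 6) or 10864 (parturition) genes that reached 1 FPKM in every column. A gene was tested for a call when 2 or more of the 6 columns reached 1 FPKM, and a pseudocount of 1 was added. The planned limma tests need a value per sample and were not run. The rule for named genes took the 5 genes, Stat5a and Stat5b, up to 4 genes per list with the largest absolute ratio in Null or B, and the 3 or 5 most similar genes per member. The members and lists were chosen with earlier results of these data known. Alternatives were a pseudocount of 0.1, other scalings, filters and folds, and removal by lowess of the trend with transcript length and GC content from GENCODE M21 (98.3% of genes matched). Stat5b-/- mice are not analysed here. Results of 1 list, the other STAT genes, are not reported here. The calculation was tested on simulated data. Tools were Python 3.11.15, pandas 2.3.3, statsmodels 0.14.6, numpy 2.4.6 and matplotlib 3.10.9.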

Additional observations from a re-analysis of the deposited data

How the results depend on the processing

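No paired analysis was possible because the tables hold a mean per genotype and no value per sample, so the replicate block and leaving out each replicate were not run. No ratio of 2-fold or more changed sign under any setting. Smaller ratios changed sign without scaling (10 of all 140 ratios), with luminal scaling (12 of all 110) and with the length and GC correction (12 of all 110). The cause of the changes below was not tested.

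Counts of the 5 genes called moved as follows. With a pseudocount of 0.1, day 6 gave 3 for B against AABB and 2 for AB against BB. Without scaling, day 6 gave 3 for B, 1 for BB and 1 for AB against AABB and 1 for B against Null, parturition gave 3 for Null and 3 for B against AABB and 2 for BB against B, and parturition against day 6 gave 1 in Null and 0 in AABB. With luminal scaling, day 6 gave 5 for B, 4 for A, 3 for BB and 4 for AB against AABB, 0 for AB against A, and 1 each for B and A against Null. The log2 ratios there were 2.39 (Prlr) and 1.62 (Ghr) in B, 2.13 and 1.77 in A, and 1.17 and 2.47 in AB. Luminal scaling at parturition gave 2 for Null and 1 for AB against AABB and 0 for A against B. With the length and GC trend removed, day 6 gave 1 for Null, 0 for B (Prlr 0.85), 0 for A (Prlr 0.48), 0 for BB and 1 for AB against AABB, 2 for AB against BB and 0 for AB against A, and parturition gave 2 for BB against B. At 1.5-fold, day 6 gave 4 for B and 4 for A against AABB, 2 for AB against BB, 2 for AB against A, and 1 each for B and A against Null. At 1.5-fold, parturition gave 2 for Null, 2 for B and 1 for AB against AABB, 1 for AB against BB and 2 for BB against B. Upper-quartile scaling gave 3 for B against AABB at day 6 and moved no other count, and no filter or a floor of 5 FPKM moved none. Counts over all genes moved by more than 1.5 times in 17 of 22 comparisons with a pseudocount of 0.1, in 22 of 22 at 1.5-fold, in 8 with luminal scaling and in 2 with the floor of 5 FPKM.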
